A study of Homo sapiens with 24 samples.

Results

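C/EBPδ-inducible cells exposed to doxycycline for 24 h were set against the same cells at 0 h in RNA-sequencing counts over all genes. They are a pool of clones of MIA PaCa-2, an established line from a human carcinoma of the pancreas, with a Tet-On construct that expresses a CEBPD cDNA when doxycycline is present. The comparison takes in 6 of the 24 libraries of the count table, 3 replicate wells at 0 h and 3 at 24 h, chosen by the line and time in their labels. The sample labels list 2 µg/mL doxycycline for all wells, and the 0 h wells are taken here as not yet exposed, as the methods describe them. CTRL cells carry the construct without the cDNA, and their 24 h and 0 h libraries, 3 of each, were used to set each change beside that in cells without the CEBPD cDNA. Wells were seeded in parallel, so that p values measure the spread between wells, and doxycycline, time in culture and the induction of CEBPD change together between 0 h and 24 h of the inducible line and cannot be told apart within it. Counts also do not separate the construct from the endogenous CEBPD gene, and the construct is known to leak without doxycycline.

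C/EBPδ is a basic leucine zipper transcription factor of the CCAAT/enhancer-binding protein family, whose members bind DNA as dimers with one another or with other leucine zipper proteins such as ATF4. It is known as an immediate responder to cytokines and stress, as an activator of acute-phase and innate immune genes, and as an early factor of fat cell differentiation. In epithelial cells it has been linked to growth arrest and to tumour suppression as well as to inflammation.

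The 6 libraries held between 17892767 and 22416507 counts, and expression is given in CPM, a gene's counts scaled to a common library total after TMM normalization, which corrects totals for composition. Genes of the mitochondrial chromosome took 3.07% to 3.21% of the counts at 0 h and 2.63% to 2.89% at 24 h. Of 12 markers of pancreatic ductal and carcinoma cells, KRT18, SOX9 and KRT8 were the most abundant, with KRT18 between 111 and 115 CPM at 0 h and between 68.7 and 73.9 CPM at 24 h, and the summed level of the list lay between 302 and 316 CPM at 0 h and between 181 and 189 CPM at 24 h. KRT7 and PDX1 stayed under 2 CPM in every library. EPCAM differed between wells of the same group, with 2.29, 0.458 and 0.113 CPM at 0 h and 0.250, 1.86 and 0.0440 CPM at 24 h, and the myeloid marker LYZ likewise ranged from 0.0563 to 5.36 CPM at 0 h. The fibroblast list summed to between 240.2 and 256 CPM at 0 h and between 139 and 165 CPM at 24 h, nearly all of it COL1A2, whereas DCN and FAP had no count. Of 8 leukocyte markers 4 passed the floor of 3 counts in some library, CD68 and ITGAM with up to 38 counts and LAPTM5 with up to 16 besides LYZ, and the list summed to 4.11 to 8.84 CPM at 0 h and 2.99 to 5.67 CPM at 24 h, whereas PTPRC, CD3E and TYROBP stayed at or under the floor. Of 7 endothelial markers, CDH5, which was called lower, and ESAM passed it, with sums of 2.72 to 4.11 CPM at 0 h and 1.85 to 1.90 CPM at 24 h, and PECAM1 and VWF did not. Of 6 endocrine markers CHGB passed it and was called higher, with sums for the list of 0.799 to 1.13 CPM at 0 h and 1.40 to 2.14 CPM at 24 h, and of 6 acinar markers none did.

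CEBPD (ENSG00000221869, GRCh38 chromosome 8, 47736913 to 47738164) measured 18.9, 23.4 and 22.3 CPM at 0 h and 321, 303 and 297 CPM at 24 h. The groups did not overlap, and the rise was 14.3-fold, a log2 fold change of 3.83 (SE 0.0529, adjusted p = 5.84e-24). SE is the standard error of the log2 fold change, and all adjusted p values come from the quasi-likelihood test of edgeR after Benjamini-Hochberg adjustment. Its mean was 249 ± 15.3 CPM (SD, n = 3) after 8 h and 204 ± 7.15 CPM (SD, n = 3) after 48 h, so that the 24 h wells held the highest level of the time course. In CTRL cells it had 3.94 ± 0.247 CPM (SD, n = 3) at 0 h and 3.55 ± 0.129 CPM (SD, n = 3) at 24 h, and the interaction of line and time, which tests whether the 24 h change differs between the lines, was 3.99 on the log2 scale (SE 0.160, adjusted p = 6.48e-15).

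Of the other members of the family, CEBPE did not pass the filter on low counts and only CEBPG was called among the rest. CEBPG, a dimer partner that lacks an activation domain of its own, measured 98.4, 99.1 and 93.1 CPM at 0 h and 112, 119 and 118 CPM at 24 h, a log2 fold change of 0.27 (SE 0.0387, adjusted p = 9.05e-06). Its rise was smaller than in CTRL cells, where the log2 fold change was 0.54 (adjusted p = 6.54e-09), with an interaction of −0.26 (adjusted p = 0.00142). CEBPB, CEBPA and CEBPZ had log2 fold changes of 0.09, −0.07 and −0.08 with adjusted p values of 0.230, 0.614 and 0.0879, and their 0 h and 24 h libraries overlapped.

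Across the transcriptome, 2407 of 15560 tested genes were called at a false discovery rate (FDR) of 0.01. Of these, 1141 rose (7.33% of the tested genes) and 1266 fell (8.14%), and these shares are the background for every list below. With library totals in place of TMM the balance turned, with 1330 higher and 1092 lower genes. Most changes were small. The median log2 fold change was 0.32 among the genes that rose and −0.31 among those that fell, and only 97 rose and 93 fell by more than 2-fold. The libraries of both groups did not overlap for 5673 tested genes (36.5%). Protein-coding genes gave 1068 rises and 1183 falls among 11709 tested, and long non-coding RNAs 27 rises and 51 falls among 1638.

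**Figure D1:**
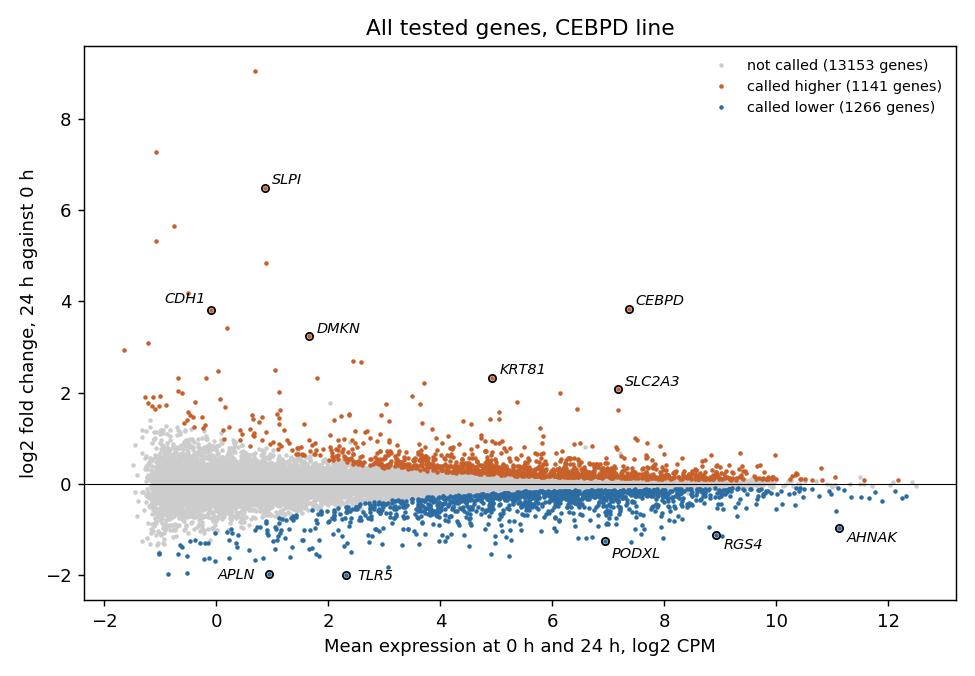
Each point is a tested gene of the inducible line, with its mean expression at 0 h and 24 h on the x axis (log2 CPM) and its log2 fold change of 24 h against 0 h on the y axis; orange points are the 1141 called higher, blue points the 1266 called lower and grey points the 13153 not called. CEBPD stands out among well expressed genes at a log2 fold change of 3.83, while genes above it, such as SLPI, are low in expression. Among called genes with non-overlapping wells and at least 2 CPM in the higher group, the decreases reach a log2 fold change of about −1.99, that of TLR5.

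In CTRL cells, 24 h of doxycycline gave 427 higher genes (2.81% of 15196 tested) and 494 lower genes (3.25%). With library totals in place of TMM the same comparison gave 646 higher and 365 lower genes. The interaction of line and time was called for 464 genes with a higher change in the inducible line (2.86% of 16224 tested) and for 484 with a lower one (2.98%), or for 401 and 549 with library totals. Of the 2407 genes called in the inducible line, 481 were also called in the same direction in CTRL cells (20.0% of the inducible line's genes and 52.2% of those of CTRL cells), and 42 were called in the opposite direction. For 763 of the 2407 (31.7%), 371 higher and 392 lower, the interaction was called in the same direction as the change. A further 1286 genes were called in neither the CTRL comparison nor the interaction, so that for them a difference from CTRL cells was not established.

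The fitted increases of ORM1, SLPI and PI3 exceeded that of CEBPD, and all 3 genes were near absent at 0 h. ORM1, an acute-phase glycoprotein whose near-identical paralog ORM2 can share its reads, had no count at 0 h and 3.23 CPM on average at 24 h, at least 20.8-fold higher than the floor of 3 counts per library. SLPI, a secreted inhibitor of neutrophil proteases, was at the floor at 0 h and measured 3.70, 3.62 and 3.52 CPM at 24 h, at least 23.3-fold higher. PI3, or elafin, an inhibitor of the same family of proteases, measured 0.107, 0.183 and 0.0563 CPM at 0 h and 3.85, 3.24 and 3.70 CPM at 24 h. TREM1, a receptor whose log2 fold change of 3.42 was below that of CEBPD and that amplifies inflammatory signals in myeloid cells, measured 0.266, 0.137 and 0.169 CPM at 0 h and 2.20, 1.95 and 2.07 CPM at 24 h. All 4 genes were called with 0 h and 24 h libraries that did not overlap, which was a condition for naming them by size. Their CTRL means were at most 0.114 CPM at both times. The interaction was called for none of the 4, with adjusted p values of 0.0701 for ORM1, 0.0101 for SLPI, 0.0822 for PI3 and 0.375 for TREM1.

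CDH1, the adhesion molecule of epithelial junctions, measured 0, 0.137 and 0.225 CPM at 0 h and 1.40, 2.14 and 1.72 CPM at 24 h, a log2 fold change of 3.81 (SE 0.452, adjusted p = 5.80e-07), and its mean was higher still after 8 h (4.75 CPM). No 0 h library of the inducible line held more than 4 counts of CDH1, close to the floor of 3 counts. In CTRL cells CDH1 averaged 1.04 CPM at 0 h and 0.952 CPM at 24 h, above the 0 h wells of the inducible line. ABCG1, an exporter of cholesterol from cells, measured 1.28, 1.56 and 1.46 CPM at 0 h and 9.20, 8.48 and 10.3 CPM at 24 h, a log2 fold change of 2.70 (SE 0.147, adjusted p = 9.04e-13), and reached 22.7 CPM after 48 h. KIF21B, a kinesin motor, measured 1.92, 1.19 and 1.80 CPM at 0 h and 10.5, 11 and 9.51 CPM at 24 h, a log2 fold change of 2.68 (SE 0.148, adjusted p = 1.17e-12). Each of the 3 genes had a called interaction, of 3.93, 2.33 and 1.72, all higher in the inducible line. DMKN, an epidermal secreted protein, rose in the same way from 0.615 to 5.67 CPM. In CTRL cells DMKN did not pass the filter on low counts, with means of 0.235 CPM at 0 h and 0.289 CPM at 24 h. Its called interaction of 2.98 thus rests on few reads in that line.

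Among genes with more reads, the smallest p values of the increases came from SLC2A3, SIPA1L2, DDIT4, PRND, KRT81, RBM47 and TRIB3, besides CEBPD. SLC2A3 (ENSG00000059804, GRCh38 chromosome 12, 7919230 to 8019007), the glucose transporter GLUT3, measured 54, 54.3 and 58.3 CPM at 0 h and 235, 237 and 227 CPM at 24 h, a log2 fold change of 2.07 (SE 0.0393, adjusted p = 3.49e-21). In CTRL cells it averaged 147 and 146 CPM, and the interaction was 2.08 (adjusted p = 5.14e-19). SIPA1L2, a GTPase-activating protein for Rap, measured 41.3, 42.5 and 41.2 CPM at 0 h and 132, 131 and 130.04 CPM at 24 h, a log2 fold change of 1.65 (SE 0.0396, adjusted p = 1.87e-19). It averaged 11.1 and 11.3 CPM in CTRL cells, with an interaction of 1.62 (adjusted p = 2.26e-11). Neither gene was called in CTRL cells.

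PRND (ENSG00000171864, GRCh38 chromosome 20, 4721909 to 4728460), which encodes the prion-like protein doppel, moved in opposite directions in the lines. It measured 26.2, 30.6 and 28.5 CPM at 0 h and 108, 116 and 113 CPM at 24 h in inducible cells, a log2 fold change of 1.98 (SE 0.0498, adjusted p = 4.21e-19). In CTRL cells it fell from 58.6 ± 1.92 to 36.1 ± 1.31 CPM (SD, n = 3), with a log2 change of −0.69 (adjusted p = 3.17e-09), and the interaction was 2.68 (adjusted p = 7.63e-19). Its mean after 8 h, 27.8 CPM, lay within the 0 h range of 26.2 to 30.6 CPM. RBM47, an RNA-binding protein of epithelial cells, measured 17.5, 19.1 and 18.7 CPM at 0 h and 65, 60.0 and 66.5 CPM at 24 h, a log2 fold change of 1.79 (SE 0.0558, adjusted p = 3.02e-17), and also rose in CTRL cells by a smaller amount, 0.36 on the log2 scale. The interaction for RBM47 was 1.44 (adjusted p = 2.29e-11).

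KRT81, a hair keratin, measured 8.79, 11 and 10.5 CPM at 0 h and 51.5, 49.7 and 50.6 CPM at 24 h, a log2 fold change of 2.32 (SE 0.0679, adjusted p = 8.71e-18), and continued to 119 CPM after 48 h. Its neighbour KRT86, a near-identical hair keratin, measured 0.905, 1.24 and 1.29 CPM at 0 h and 6.65, 5.72 and 4.98 CPM at 24 h. Reads could be split between them in counting, so the gene of origin is uncertain. CTRL means were at most 0.572 CPM for either, and their interactions were not called (adjusted p = 0.0568 and 0.0114).

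The decreases with the smallest p values included abundant transcripts of these cells. AHNAK (ENSG00000124942, GRCh38 chromosome 11, 62433542 to 62556235), a giant scaffold protein at the membrane and cytoskeleton, measured 2966, 2905 and 2949 CPM at 0 h and 1518, 1484 and 1525 CPM at 24 h, a log2 fold change of −0.96 (SE 0.0213, adjusted p = 7.70e-20). AHNAK2, its paralog, measured 239.8, 235 and 246 CPM at 0 h and 101, 95.2 and 101 CPM at 24 h, a log2 fold change of −1.27 (SE 0.0359, adjusted p = 4.94e-18). Both fell further than in CTRL cells, with interactions of −0.60 (adjusted p = 6.88e-10) and −0.77 (adjusted p = 6.05e-10).

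GPRC5A (ENSG00000013588, GRCh38 chromosome 12, 12891559 to 12917937), an orphan receptor induced by retinoic acid, measured 716, 709.7 and 722 CPM at 0 h and 325, 326 and 322 CPM at 24 h, a log2 fold change of −1.14 (SE 0.0256, adjusted p = 7.70e-20). Its level after 8 h was 358 ± 13.3 CPM (SD, n = 3), close to the level at 24 h. RGS4, which shuts off signalling of G protein-coupled receptors, measured 669.7, 667 and 661 CPM at 0 h and 299, 311 and 309 CPM at 24 h, a log2 fold change of −1.12 (SE 0.0267, adjusted p = 1.87e-19). ATP2B4, a plasma membrane calcium pump, measured 348, 354 and 349.9 CPM at 0 h and 154, 151 and 155 CPM at 24 h, a log2 fold change of −1.19 (SE 0.0299, adjusted p = 4.21e-19). PODXL, an anti-adhesive sialomucin, measured 169, 173 and 175 CPM at 0 h and 70.8, 72.6 and 72.4 CPM at 24 h, a log2 fold change of −1.26 (SE 0.0358, adjusted p = 5.65e-18). No 24 h library of these 4 genes, which were picked for their small p values, reached the level of a 0 h library. Their interactions ranged from −0.90 for PODXL to −0.71 for GPRC5A, all called. Each of the 4 also fell in CTRL cells, with log2 fold changes between −0.42 and −0.26.

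EMP1, an epithelial membrane protein, measured 256, 260.3 and 265 CPM at 0 h and 118, 125 and 119 CPM at 24 h, a log2 fold change of −1.10 (SE 0.0337, adjusted p = 2.07e-17). NAV1, a microtubule-guidance protein, measured 321, 330.2 and 322 CPM at 0 h and 169.7, 169 and 166 CPM at 24 h, a log2 fold change of −0.95 (SE 0.0300, adjusted p = 4.27e-17). EMP1 and NAV1 were called lower in CTRL cells too, with log2 fold changes of −0.51 and −0.43, and their interactions were −0.59 and −0.51. By size, among called genes with non-overlapping wells and at least 2 CPM in the higher group, the decreases were led by TLR5 and APLN, both about 4-fold. APLN, the ligand of the apelin receptor, measured 2.72, 3.62 and 2.76 CPM at 0 h and 1.10, 0.715 and 0.528 CPM at 24 h, a log2 fold change of −1.97 (SE 0.250, adjusted p = 1.65e-06). ITGA10, a collagen-binding integrin subunit, measured 13.4, 13 and 12.8 CPM at 0 h and 3.20, 3.72 and 4.14 CPM at 24 h, a log2 fold change of −1.82 (SE 0.107, adjusted p = 4.02e-12). FGF1, an acidic fibroblast growth factor, fell 3.17-fold to 0.767 CPM, and it also fell in CTRL cells. COL13A1, a membrane collagen, fell by a like amount in both lines, with log2 fold changes of −1.57 in inducible and −1.74 in CTRL cells. Long non-coding RNAs were among the largest decreases. LASTR had 2.68 CPM at 0 h and 0.865 CPM at 24 h, SIRLNT 3.75 and 1.22 CPM, and SH3TC2-DT 56.4 and 18.8 CPM.

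**Figure D2:**
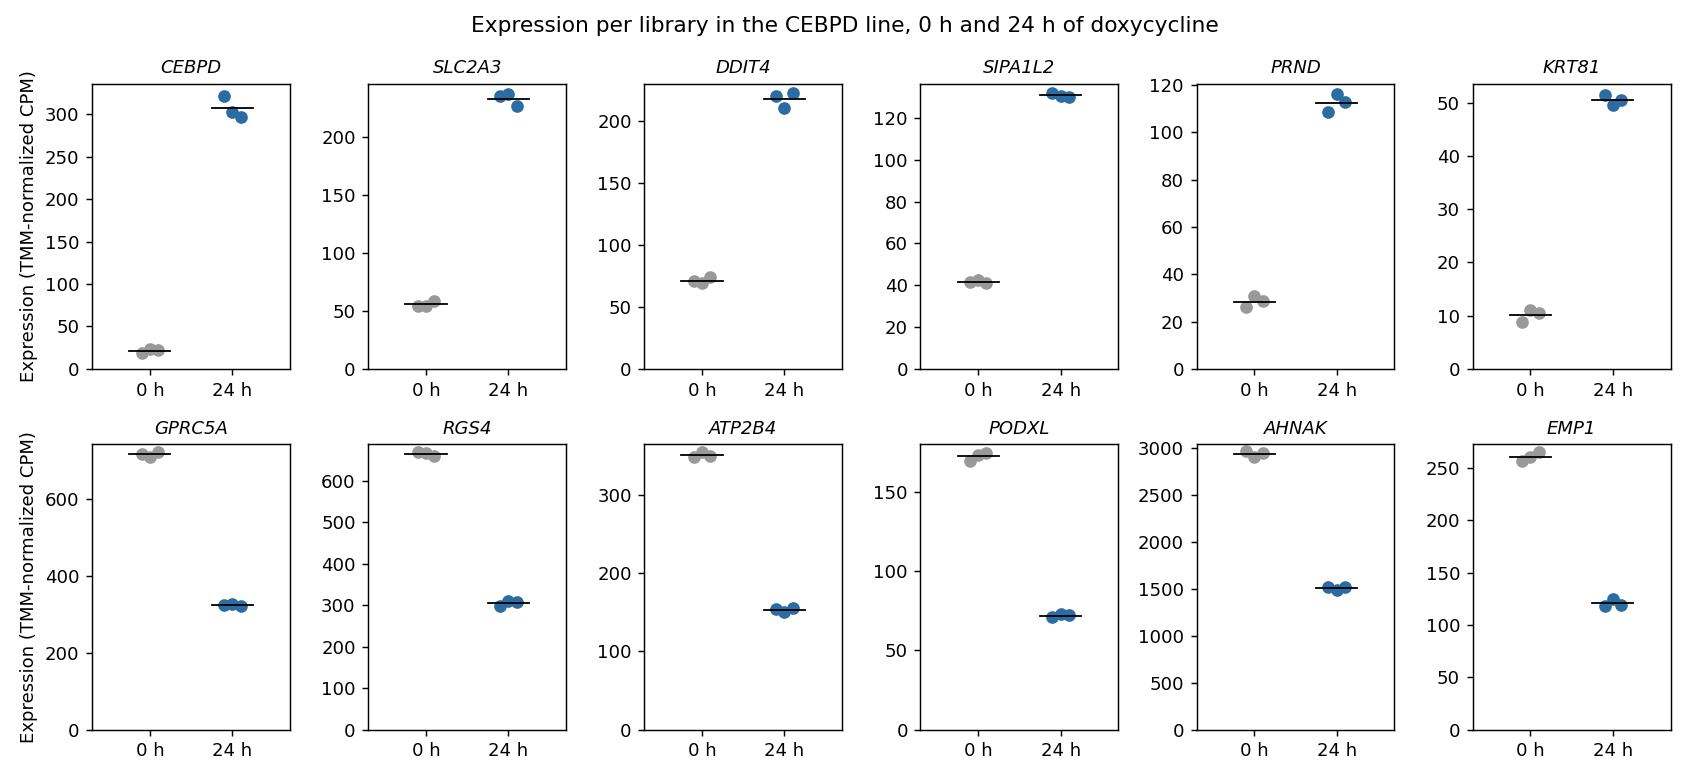
Expression in TMM-normalized CPM (y axes, from 0) of 12 genes in each of the 3 wells at 0 h (grey) and at 24 h of doxycycline (blue) of the inducible line; bars are means. The upper row shows genes that rose, with CEBPD between 297 and 321 CPM at 24 h, and the lower row genes that fell. In each panel the wells of one time lie close together and apart from those of the other. The 12 genes were picked for their small p values, so this separation follows from the choice.

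The stretches around the transcription starts were searched for letters that C/EBP proteins are known to bind. RefSeq's promoter sequences for GRCh38.p14, which run from 250 bases before to 50 bases after a start, could be matched by symbol to 10191 of the 15560 tested genes, and the start listed at the top for each gene was used. TTGCNNAA, on either strand, occurred in 6.90% of them. It was found in 92 of 869 promoters of genes that rose (10.6%), in 59 of 975 of genes that fell (6.05%) and in 552 of 8347 of genes that were not called (6.61%). TGATGNAAT, the letters of a combined C/EBP and ATF element, occurred in 12 promoters of genes that rose (1.38%), in 5 of genes that fell (0.513%) and in 0.451% of all. These shares are a description with no test, and a match shows only that the letters are present. Among the genes named here, PTX3, TREM1, IL1B, PRND, NFIL3, PHGDH, FADS1 and SLC39A10 rose and held a match, and RGS4, AXL, COL13A1, LASTR, CYP26B1, CDKN2C and FAS fell and held a match. FAS lost its call without 0 h replicates 1 or 2 or 24 h replicates 1 or 3, with adjusted p values of up to 0.0682. The windows of 3 innate immune genes that rose, of PRND and of RGS4 are shown so that the place of the match can be read, 5′ to 3′ on the strand of the gene, with the matched letters in capitals.
PTX3 (chr3:157436600-157436899, plus strand): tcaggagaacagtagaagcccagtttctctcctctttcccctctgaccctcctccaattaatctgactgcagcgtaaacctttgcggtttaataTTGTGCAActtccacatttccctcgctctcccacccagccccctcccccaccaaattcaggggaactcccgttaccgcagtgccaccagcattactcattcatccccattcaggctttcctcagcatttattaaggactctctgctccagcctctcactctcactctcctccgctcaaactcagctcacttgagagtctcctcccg
TREM1 (chr6:41286633-41286932, minus strand): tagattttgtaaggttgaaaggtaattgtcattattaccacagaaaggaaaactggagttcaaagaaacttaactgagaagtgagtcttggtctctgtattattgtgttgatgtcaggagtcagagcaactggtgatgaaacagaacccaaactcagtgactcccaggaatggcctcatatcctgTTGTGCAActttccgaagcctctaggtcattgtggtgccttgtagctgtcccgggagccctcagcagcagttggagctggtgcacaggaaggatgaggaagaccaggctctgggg
IL1B (chr2:112836730-112837029, minus strand): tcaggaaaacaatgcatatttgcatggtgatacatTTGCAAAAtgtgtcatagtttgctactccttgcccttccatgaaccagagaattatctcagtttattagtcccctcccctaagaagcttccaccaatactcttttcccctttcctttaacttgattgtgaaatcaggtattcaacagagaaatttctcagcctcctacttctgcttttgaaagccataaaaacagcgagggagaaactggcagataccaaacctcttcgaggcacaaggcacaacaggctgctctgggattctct
PRND (chr20:4721659-4721958, plus strand): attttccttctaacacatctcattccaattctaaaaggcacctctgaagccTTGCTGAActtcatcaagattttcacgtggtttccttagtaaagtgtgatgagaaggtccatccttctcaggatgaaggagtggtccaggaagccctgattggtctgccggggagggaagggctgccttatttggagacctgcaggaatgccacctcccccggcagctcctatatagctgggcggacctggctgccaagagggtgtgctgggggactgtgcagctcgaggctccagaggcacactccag
RGS4 (chr1:163068621-163068920, plus strand): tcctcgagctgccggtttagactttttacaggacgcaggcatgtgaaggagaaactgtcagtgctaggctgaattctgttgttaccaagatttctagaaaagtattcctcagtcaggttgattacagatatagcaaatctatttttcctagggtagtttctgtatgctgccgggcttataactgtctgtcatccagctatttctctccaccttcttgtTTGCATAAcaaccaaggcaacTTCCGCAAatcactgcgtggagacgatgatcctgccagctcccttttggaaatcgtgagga
In TREM1 the match began 65 bases before the start, in PTX3 156, in PRND 199 and in IL1B 215 bases before it. RGS4, which fell, held matches that began 32 and 11 bases before its start. PTX3, a soluble pattern recognition protein, measured 0.160, 0.320 and 0.225 CPM at 0 h and 1.15, 0.858 and 1.01 CPM at 24 h. IL1B, the cytokine interleukin 1β, measured 0.959, 0.916 and 1.41 CPM at 0 h and 3.15, 3.48 and 2.82 CPM at 24 h. The interaction was called for neither PTX3 nor IL1B (adjusted p = 0.0469 and 0.506). In CTRL cells their means were at most 0.129 CPM, and neither passed the filter on low counts there.

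The genes that ATF4 and CHOP are known to switch on when amino acids are short or proteins misfold rose in both lines. Of 14 tested genes of this list, 10 rose and none fell in inducible cells, with a median log2 fold change of 0.94, and in CTRL cells 11 rose and 1 fell. DDIT4, an inhibitor of mTORC1, measured 70.6, 69.3 and 74.1 CPM at 0 h and 220.3, 210.2 and 223 CPM at 24 h, a log2 fold change of 1.62 (SE 0.0383, adjusted p = 1.87e-19), and rose in CTRL cells by 1.53 on the log2 scale. CHAC1, which degrades glutathione, measured 7.14, 7.65 and 6.75 CPM at 0 h and 19, 17.5 and 18.3 CPM at 24 h. It rose by 1.34 on the log2 scale in inducible cells and by 2.12 in CTRL cells, and the interaction of −0.77 was called (adjusted p = 0.00200). TRIB3, a pseudokinase that binds ATF4, measured 16.2, 17.9 and 16 CPM at 0 h and 49, 51.3 and 48.9 CPM at 24 h and rose by 1.57, more than in CTRL cells, where it rose by 1.01, with an interaction of 0.57 (adjusted p = 4.99e-05). GDF15, a secreted stress cytokine, measured 2.45, 2.84 and 2.81 CPM at 0 h and 6.80, 8.29 and 7.84 CPM at 24 h, a log2 fold change of 1.50 (SE 0.133, adjusted p = 4.99e-09). In CTRL cells it averaged 0.643 and 0.721 CPM, but its interaction did not pass the threshold (adjusted p = 0.0161).

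Enzymes and transporters that supply amino acids moved with that list. Of 17 tested genes for serine, folate and proline metabolism, 12 rose and none fell, and in CTRL cells 11 rose and none fell, with median log2 fold changes of 0.37 and 0.34. PHGDH, which opens the serine pathway, measured 112, 121 and 121 CPM at 0 h and 253, 233 and 231 CPM at 24 h, a log2 fold change of 1.02 (SE 0.0399, adjusted p = 2.46e-15), and rose by 1.09 in CTRL cells. PSAT1, the next enzyme of that pathway, rose from 145 ± 2.00 to 269.7 ± 12 CPM (SD, n = 3). GPT2, a mitochondrial alanine aminotransferase, rose from 63.1 ± 2.83 to 117 ± 1.44 CPM (SD, n = 3). Of 14 amino acid transporters, 8 rose and 1 fell in each line, among them SLC1A4, SLC7A5 and SLC3A2, whose log2 fold changes were 1.07, 0.68 and 0.52 in inducible cells and 1.27, 0.79 and 0.57 in CTRL cells. SLC7A11, the cystine transporter, rose by 0.68 in inducible and by 1.51 in CTRL cells, with an interaction of −0.83 (adjusted p = 4.70e-08).

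Aminoacyl-tRNA synthetases load tRNAs with amino acids in the cytosol or in mitochondria. Of 20 cytosolic synthetases, 11 rose and none fell in inducible cells, and 13 rose and none fell in CTRL cells. The interaction was lower in the inducible line for 7 of them and higher for none. CARS1 rose by 0.57 in inducible and by 0.96 in CTRL cells (interaction −0.39, adjusted p = 0.000115), and YARS1 by 0.52 and 0.70 (interaction −0.17, adjusted p = 0.00395). WARS1 rose by similar amounts, 0.43 and 0.39, and its interaction was not called (adjusted p = 0.579). None of the 17 mitochondrial synthetases was called in either line by edgeR, and DESeq2 also called 0 in inducible cells. There 10 of the 17 had an unadjusted p under 0.05 in edgeR, against 5257 of all 15560 tested genes. The 0 h and 24 h libraries of 10 did not overlap, against 36.5% of all tested genes. Of the 17, 12 had a log2 fold change above 0, with a median of 0.08 against 0.18 for the cytosolic list, 1 had a called interaction, higher in inducible cells, and the difference between the lists was not tested. The most abundant, IARS2, had a log2 fold change of −0.01 (adjusted p = 0.796), which came to 0.0046 when library totals replaced TMM. At an FDR of 0.05, 1 of the 17 was called in inducible cells.

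**Figure D3:**
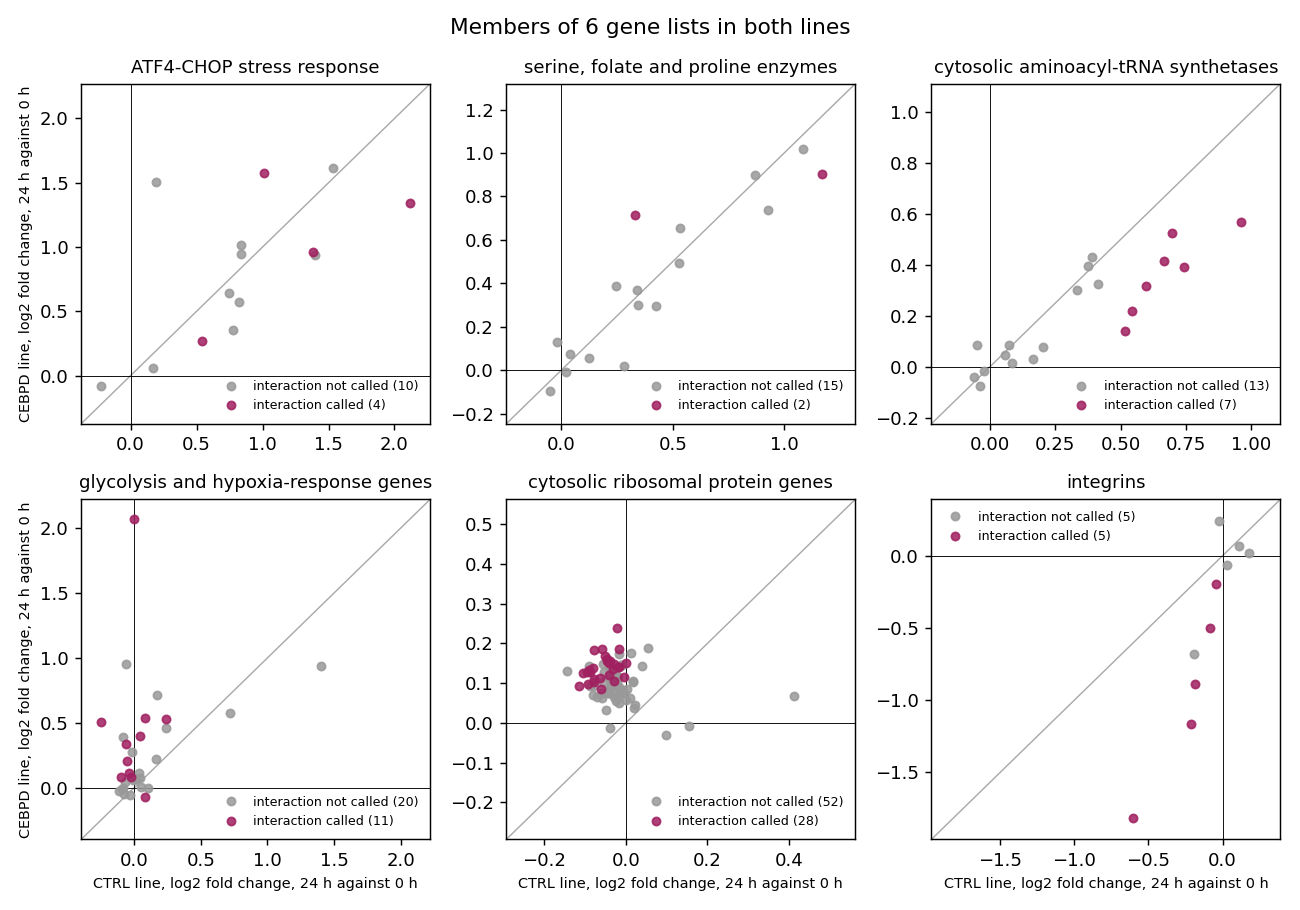
Each point is a gene of the named list, with its log2 fold change of 24 h against 0 h in CTRL cells on the x axis and in inducible cells on the y axis; the diagonal marks equal change, and coloured points have a called interaction of line and time. Most serine enzymes lie along the diagonal and the called cytosolic synthetases below it, most ribosomal protein genes lie above it near 0 in CTRL cells, and the called integrins lie below it.

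Glycolytic and hypoxia-response genes rose in the inducible line. Of 31 tested, 17 rose and none fell, with a median log2 fold change of 0.12, whereas in CTRL cells 4 rose and 1 fell. The interaction was called for 10 as higher and for 1 as lower in the inducible line. Besides SLC2A3, the largest increases were those of CA12, a carbonic anhydrase at the cell surface, with 1.49, 1.83 and 1.58 CPM at 0 h and 3.60, 3.00 and 2.95 CPM at 24 h, of VLDLR, a lipoprotein receptor, which rose from 19 ± 1.36 to 36.5 ± 1.97 CPM (SD, n = 3), and of PFKFB4, a regulator of glycolytic flux, which rose from 6.26 ± 0.740 to 10.3 ± 0.419 CPM (SD, n = 3). VLDLR also rose in CTRL cells, by 1.40 on the log2 scale. The interactions of CA12, VLDLR and PFKFB4 were not called (adjusted p = 0.176, 0.0777 and 0.0321).

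Of 24 tested enzymes and transporters that NRF2 controls in oxidative stress, 14 rose and 2 fell, against 6 and 2 in CTRL cells. ABCC3, an exporter of conjugated compounds, measured 3.62, 3.75 and 3.77 CPM at 0 h and 12.7, 13.3 and 11.8 CPM at 24 h, a log2 fold change of 1.76 (SE 0.106, adjusted p = 5.38e-12), with an interaction of 2.01 (adjusted p = 8.72e-09). PGD, which makes NADPH in the pentose phosphate pathway, measured 366, 361 and 354 CPM at 0 h and 562, 552 and 548 CPM at 24 h, a log2 fold change of 0.63 (SE 0.0268, adjusted p = 1.07e-14), and had a CTRL log2 fold change of −0.01. AKR1C2, an aldo-keto reductase with near-identical paralogs that can share its reads, measured 177, 167 and 183 CPM at 0 h and 305, 317 and 310.1 CPM at 24 h. Genes of iron uptake and storage moved in the same direction, with 4 of 9 tested higher and none lower. Besides the ferritins FTH1 and FTL these were TFRC and ACO1, with log2 fold changes of 0.15 and 0.24. The interaction was called for TFRC (0.24) but not for ACO1 (adjusted p = 0.857). FTH1 and FTL, the ferritin chains, measured 252, 267 and 257 CPM at 0 h and 386, 389 and 370.2 CPM at 24 h for the heavy and 1542, 1585 and 1595 CPM at 0 h and 2089, 1937 and 1977 CPM at 24 h for the light chain. Both interactions were called, 0.52 (adjusted p = 1.67e-09) and 0.37 (adjusted p = 2.29e-08), while processed ferritin pseudogenes can share reads with these genes.

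Lipid genes rose as well. Of 23 tested genes of cholesterol synthesis, 13 rose and 1 fell, with a median log2 fold change of 0.19, and in CTRL cells 1 rose and none fell, although the interaction was called higher for only 4. MVK, mevalonate kinase, measured 9.59, 9.98 and 8.78 CPM at 0 h and 16.5, 15.3 and 15.6 CPM at 24 h, a log2 fold change of 0.74 (SE 0.0830, adjusted p = 2.55e-07), with an interaction of 0.74 (adjusted p = 8.81e-05). DHCR7, the last enzyme of the pathway, measured 38.2, 37.7 and 36.8 CPM at 0 h and 47.1, 51 and 47.6 CPM at 24 h. MSMO1, a sterol methyl oxidase, measured 10.0, 10.5 and 10.2 CPM at 0 h and 14.7, 15.3 and 15.5 CPM at 24 h, and its interaction was not called (adjusted p = 0.0190). HSD17B7 was the member that fell, from 7.35 ± 0.649 to 4.27 ± 0.273 CPM (SD, n = 3).

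Among 21 tested genes of fatty acid and glycerolipid synthesis, 6 rose and none fell, and in CTRL cells 5 rose and 1 fell. SCD (ENSG00000099194, GRCh38 chromosome 10, 100347233 to 100364826), the desaturase that makes oleate, measured 802, 768 and 776 CPM at 0 h and 1206, 1222 and 1233 CPM at 24 h, a log2 fold change of 0.65 (SE 0.0245, adjusted p = 1.25e-15). It stood at 547 ± 15.3 CPM after 8 h and at 2622 ± 1.69 CPM after 48 h (SD, n = 3), below and above the 0 h wells respectively. FADS1, a desaturase of polyunsaturated fatty acids whose exons overlap those of FADS2 on the other strand, rose from 64.2 ± 2.46 to 95 ± 1.90 CPM (SD, n = 3). PLIN2, the coat protein of lipid droplets, measured 37.8, 38 and 36.1 CPM at 0 h and 80.3, 73.9 and 75.4 CPM at 24 h, a log2 fold change of 1.04 (SE 0.0461, adjusted p = 2.04e-14), and PLIN3 fell by 0.36 on the log2 scale. They were the called members among 10 tested genes of fat cells and lipid droplets, and 14 more genes of that list, including typical fat cell genes, did not pass the filter on low counts.

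Cytosolic ribosomal protein genes shifted upward by small amounts. Of 80 tested, 77 had a log2 fold change above 0 and 34 were called higher, none lower, with a median of 0.11 and a highest value of 0.24 for RPL12. RPL12 measured 469.6, 465 and 483 CPM at 0 h and 536, 593 and 539 CPM at 24 h. RPL19 measured 1178, 1145 and 1181 CPM at 0 h and 1304, 1372 and 1297 CPM at 24 h, and RPS18 756, 704 and 733 CPM at 0 h and 818, 863 and 807 CPM at 24 h. In CTRL cells 13 of 80 were above 0, 2 were called lower and none higher, and the interaction was called for 28 as higher in the inducible line. The count is sensitive to single wells, since 15 were called without 0 h replicate 2 and 21 without 24 h replicate 3, and many of these genes have processed pseudogenes that can share reads.

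Nuclear genes for the respiratory chain also shifted upward. Of 80 tested, 75 were above 0, 20 were called higher and none lower, and in CTRL cells 1 was called higher and none lower. NDUFS5, a complex I subunit, measured 142, 137 and 139.9 CPM at 0 h and 171, 173 and 174 CPM at 24 h, and ATP5PD, a subunit of ATP synthase, measured 115, 114 and 120.3 CPM at 0 h and 149.6, 145 and 142 CPM at 24 h. The number called lay between 9 and 12 without any of the 0 h replicates or without 24 h replicate 3. Mitochondrial ribosomal proteins gave 4 increases among 78 tested, a share below that of all genes, led by MRPL33 and MRPS15, and the 4 became 2 without 0 h replicate 2. The mRNAs of the mitochondrial genome fell in both lines. Of 13, 8 fell and none rose in inducible cells, and 11 fell and none rose in CTRL cells. MT-CO1, the core of complex IV, measured 4255, 4334 and 4205 CPM at 0 h and 3179, 3336 and 3378 CPM at 24 h, and fell less in inducible than in CTRL cells, with log2 fold changes of −0.37 and −0.55 (interaction 0.19, adjusted p = 0.000152). For 6 of the 13 the interaction was called in that direction.

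**Figure D4:**
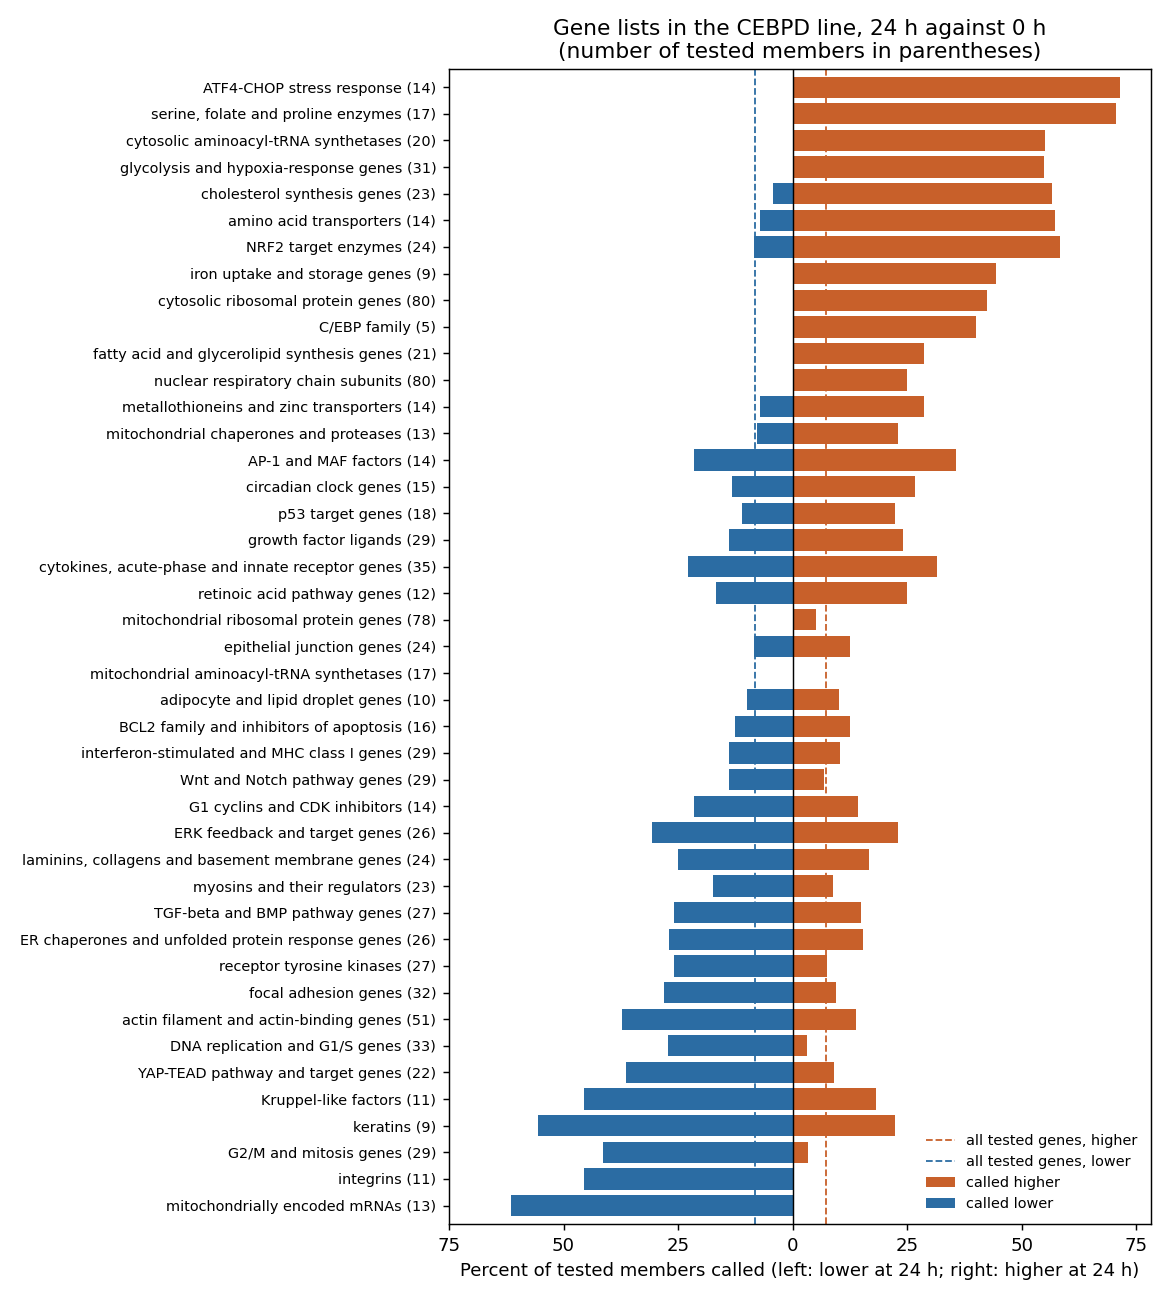
For each of 43 gene lists, bars give the percent of its tested members that were called higher (orange, to the right) or lower (blue, to the left) at 24 h against 0 h in the inducible line, with the number of tested members in parentheses; dashed lines mark the shares among all tested genes, 7.33% and 8.14%. Lists are ordered by the share higher minus the share lower, with the ATF4-CHOP and serine lists at the top and the mitochondrial mRNAs and integrins at the bottom.

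Cytokines, acute-phase proteins and innate receptors moved in both directions. Of 35 tested genes, 11 rose and 8 fell, and in CTRL cells 1 rose and 6 fell. The members with the largest increases were ORM1, PTX3 and IL1B, all with under 4 CPM at 24 h. IL1B continued to 5.16 CPM after 48 h. The interaction was called for 6 members of the list as higher and for 3 as lower in the inducible line. As given above, it was not called for ORM1, PTX3 or IL1B. TLR5, the receptor for flagellin, fell from 7.98 ± 0.0984 to 1.99 ± 0.432 CPM (SD, n = 3), with an interaction of −1.68 (adjusted p = 6.12e-06). Interferon-stimulated and MHC class I genes gave 3 increases and 4 decreases among 29. NLRC5, an activator of MHC class I genes, and the interferon-induced IFIT5 and IFIT2 fell, with log2 fold changes of −0.49, −0.37 and −0.32.

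The lists of integrins, basement membrane and keratins held more decreases than increases. Among 11 tested integrin subunits, 5 fell and none rose, and all 5 also had a called interaction, lower in inducible cells. ITGA6, which pairs with β4 in hemidesmosomes, measured 44.6, 44.6 and 42.2 CPM at 0 h and 20.7, 27 and 23 CPM at 24 h, a log2 fold change of −0.89 (SE 0.0683, adjusted p = 4.06e-10). ITGA3, a laminin-binding subunit, measured 33.8, 36.4 and 34.8 CPM at 0 h and 26.8, 22.3 and 25.2 CPM at 24 h. ITGB4 fell with a log2 fold change of −1.16. ITGA10, ITGA6 and ITGB4 were called lower in CTRL cells too, with log2 fold changes of −0.60, −0.18 and −0.21. COL17A1, the transmembrane collagen of hemidesmosomes, measured 145, 149 and 142 CPM at 0 h and 69.2, 63.8 and 60.5 CPM at 24 h, a log2 fold change of −1.17 (SE 0.0436, adjusted p = 9.39e-16), and HSPG2, the basement membrane proteoglycan perlecan, measured 156, 165 and 165 CPM at 0 h and 101, 91.6 and 97.6 CPM at 24 h. COL17A1 and HSPG2 were called lower in CTRL cells too, with log2 fold changes of −0.61 and −0.38, and their called interactions were −0.55 and −0.36. Of 24 laminin, collagen and basement membrane genes, 4 rose and 6 fell, and the called number fell from 10 to 6 without 24 h replicate 3.

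Of 9 tested keratins, 5 fell and only the hair keratins KRT81 and KRT86 rose. KRT19, a keratin of ductal epithelium, measured 15.1, 17.4 and 15.8 CPM at 0 h and 9.40, 6.58 and 6.65 CPM at 24 h, a log2 fold change of −1.10 (SE 0.109, adjusted p = 2.97e-08), with an interaction of −0.84 (adjusted p = 3.00e-06), and KRT15, a basal keratin, measured 4.10, 4.94 and 3.26 CPM at 0 h and 1.55, 1.67 and 2.03 CPM at 24 h. Junction genes gave 3 increases and 2 decreases among 24 tested. CLDN1 rose from 98.9 ± 5.96 to 133 ± 2.20 CPM (SD, n = 3), whereas CLDN4, another tight junction claudin, measured 13.4, 14.2 and 12.4 CPM at 0 h and 6.35, 7.53 and 6.34 CPM at 24 h, and PKP3, a desmosomal plakophilin, 16.8, 18.2 and 16.8 CPM at 0 h and 12.3, 10.2 and 10.0 CPM at 24 h. All 3 had a called interaction in the direction of their change, and the summed level of the ductal cell markers was lower at 24 h, as given above.

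In focal adhesions, 9 genes fell and 3 rose among 32 tested. PTK2B, the FAK-related kinase PYK2, measured 5.17, 4.76 and 4.11 CPM at 0 h and 21.4, 21.7 and 21.6 CPM at 24 h, a log2 fold change of 2.20 (SE 0.0912, adjusted p = 6.34e-15), with an interaction of 1.38 (adjusted p = 0.000807). FYN, a Src family kinase, rose from 13.4 ± 0.663 to 23.1 ± 0.456 CPM (SD, n = 3), and its interaction was not called (adjusted p = 0.0728). PXN, the scaffold paxillin, measured 230.3, 232 and 235 CPM at 0 h and 151, 146 and 144 CPM at 24 h, a log2 fold change of −0.66 (SE 0.0326, adjusted p = 1.46e-13). FERMT1, or kindlin-1, an activator of integrins, measured 58.6, 58.6 and 55.8 CPM at 0 h and 38, 37.4 and 33.4 CPM at 24 h, and had log2 fold changes of −0.67 in inducible and −0.60 in CTRL cells.

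More cytoskeletal genes fell than rose. Of 51 tested actin and actin-binding genes, 19 fell and 7 rose, against 8 and 1 in CTRL cells, and the interaction was lower for 6 and higher for 5. EZR, which ties actin to the membrane, measured 815, 835 and 839 CPM at 0 h and 586, 579 and 563 CPM at 24 h, a log2 fold change of −0.52 (SE 0.0253, adjusted p = 1.05e-13), and DSTN, an actin-depolymerizing factor, measured 199.5, 204 and 200.1 CPM at 0 h and 149.8, 151 and 154 CPM at 24 h. Among 23 myosins and their regulators 4 fell and 2 rose. MYO10, the motor of filopodia, measured 376, 369 and 365 CPM at 0 h and 208, 214 and 208 CPM at 24 h, a log2 fold change of −0.81 (SE 0.0293, adjusted p = 4.69e-16), with an interaction of −0.66 (adjusted p = 1.88e-12), while MYL9, a myosin light chain, rose from 31.3 ± 1.05 to 44.4 ± 2.19 CPM (SD, n = 3). ARHGAP29, a GTPase-activating protein, measured 164, 168 and 166 CPM at 0 h and 87.4, 89.1 and 94.4 CPM at 24 h, a log2 fold change of −0.87 (SE 0.0370, adjusted p = 9.42e-15), and ECT2, the exchange factor of cytokinesis, measured 278, 276 and 271 CPM at 0 h and 186, 198 and 193 CPM at 24 h.

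In growth factor signalling, 7 receptor tyrosine kinases fell and 2 rose among 27 tested. EPHA7, an ephrin receptor, measured 29.6, 29.2 and 29.2 CPM at 0 h and 14.5, 12.2 and 13.8 CPM at 24 h, a log2 fold change of −1.11 (SE 0.0698, adjusted p = 1.07e-11), with an interaction of −0.77 (adjusted p = 3.24e-06), and EGFR and AXL fell 1.87-fold and 1.99-fold. Ligands gave 7 increases and 4 decreases among 29. Feedback and target genes of ERK were divided, with 6 higher and 8 lower among 26. EGR1, an immediate early factor, measured 28.8, 34.3 and 35.6 CPM at 0 h and 75.2, 80.3 and 75.5 CPM at 24 h, a log2 fold change of 1.23 (SE 0.0565, adjusted p = 3.87e-14), and IER3 9.59, 10.8 and 9.84 CPM at 0 h and 22.3, 18.1 and 20.1 CPM at 24 h. FOSL1, an AP-1 subunit, measured 82.2, 94.5 and 88.7 CPM at 0 h and 52.7, 51.3 and 49.1 CPM at 24 h, a log2 fold change of −0.79 (SE 0.0481, adjusted p = 6.44e-12), and DUSP7, a phosphatase that acts on ERK, 149, 162 and 149 CPM at 0 h and 99.4, 93.2 and 93.4 CPM at 24 h. All 4 interactions were called in the direction of the change.

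Of 14 AP-1 and MAF factors 5 rose and 3 fell. ATF3, a stress-induced factor, measured 4.26, 3.85 and 5.18 CPM at 0 h and 9.05, 9.48 and 8.10 CPM at 24 h, and it rose in CTRL cells too, by 0.84 on the log2 scale. JUN measured 195, 218 and 212 CPM at 0 h and 142, 136 and 128 CPM at 24 h, a log2 fold change of −0.62 (SE 0.0420, adjusted p = 4.45e-11), and its interaction did not pass the threshold (adjusted p = 0.0107). Krüppel-like factors gave 5 decreases and 2 increases among 11, with KLF6 falling from 273 ± 3.44 to 182 ± 4.76 CPM and KLF4 from 55.5 ± 2.13 to 37.2 ± 0.931 CPM (SD, n = 3). KLF6 and KLF4 were called lower in CTRL cells too, with log2 fold changes of −0.43 and −0.29. The interaction was called for KLF4 (−0.28) but not for KLF6 (adjusted p = 0.0380). In the YAP and TEAD list, 8 of 22 fell and 2 rose. CCN1, a matricellular target of YAP, measured 406, 413 and 411 CPM at 0 h and 303, 312 and 294 CPM at 24 h, and NT5E, the ectonucleotidase CD73, 308, 313 and 314 CPM at 0 h and 219, 231 and 221 CPM at 24 h. Both fell by like amounts in CTRL cells, with interactions of 0.10 and −0.01 that were not called (adjusted p = 0.207 and 0.898).

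TGF-β and BMP genes gave 4 increases and 7 decreases among 27 tested. TGFB3, a TGF-β ligand, measured 6.66, 6.23 and 6.75 CPM at 0 h and 2.70, 2.95 and 3.17 CPM at 24 h, a log2 fold change of −1.14 (SE 0.131, adjusted p = 3.42e-07), and TGFBI, a secreted matrix protein, 4.05, 4.90 and 6.02 CPM at 0 h and 2.40, 2.00 and 1.94 CPM at 24 h. The interaction was called for TGFB3 (−1.35) but not for TGFBI (adjusted p = 0.228). Among 29 Wnt and Notch genes 2 rose and 4 fell. DKK1, a secreted inhibitor of Wnt receptors, measured 43.1, 46.3 and 44.2 CPM at 0 h and 17.9, 16.7 and 19.7 CPM at 24 h, a log2 fold change of −1.29 (SE 0.0620, adjusted p = 8.71e-14), and fell further than in CTRL cells, where the log2 fold change was −0.70 (interaction −0.59, adjusted p = 2.58e-05). FZD8, a Wnt receptor, measured 28.3, 29.5 and 28.3 CPM at 0 h and 20.2, 15.3 and 14.9 CPM at 24 h.

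Among cell cycle genes decreases outnumbered increases, and they were small. Of 29 genes of G2 and mitosis, 12 fell and 1 rose, with a median log2 fold change of −0.09. ANLN, or anillin, a scaffold of the cleavage furrow, measured 725, 721 and 720.1 CPM at 0 h and 490.05, 537 and 499 CPM at 24 h, a log2 fold change of −0.50 (SE 0.0297, adjusted p = 4.06e-12). CDK1, the mitotic kinase, measured 147, 155 and 158 CPM at 0 h and 127, 135 and 132 CPM at 24 h, and UBE2C 180.2, 186 and 179.8 CPM at 0 h and 161, 157 and 151 CPM at 24 h. The interaction was called lower for 3 members, ANLN among them, and was not called for CDK1 or UBE2C (adjusted p = 0.374 and 0.651). Of 33 genes of replication and G1/S, 9 fell and 1 rose, E2F1 falling from 55 ± 1.75 to 44.9 ± 2.32 CPM and UHRF1 from 257 ± 5.15 to 214 ± 10.7 CPM (SD, n = 3). In CTRL cells 1 rose and 4 fell, and the interaction was called for 3 as higher and for none as lower in the inducible line. The 10 calls of that list became 6, 6, 2 and 4 without 0 h replicates 1, 2 and 3 and without 24 h replicate 3 in turn.

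Of 14 tested G1 cyclins and CDK inhibitors 2 rose and 3 fell, and the interaction was called higher for 1 and lower for 1. CDKN1A, the inhibitor p21, measured 13.7, 14.8 and 14.1 CPM at 0 h and 26.5, 24.1 and 27.1 CPM at 24 h, a log2 fold change of 0.87 (SE 0.0703, adjusted p = 1.04e-09), with an interaction of 0.94 (adjusted p = 0.000188), and CDKN2C, the inhibitor p18, measured 21.4, 22.8 and 21.5 CPM at 0 h and 15.1, 14.4 and 15.3 CPM at 24 h. CDK6, a G1 kinase, averaged 496 CPM after 8 h, above all 0 h wells, and measured 359, 375 and 357 CPM at 0 h and 256, 267 and 280.3 CPM at 24 h. CCND2, cyclin D2, measured 12, 13 and 12.9 CPM at 0 h and 18.9, 19.5 and 20.6 CPM at 24 h. The interactions of CDK6 and CCND2 were not called (adjusted p = 0.0667 and 0.925). Of 18 tested p53 targets 4 rose and 2 fell, and besides CDKN1A the increases included BBC3, the death protein PUMA, with 3.99, 4.39 and 4.11 CPM at 0 h and 7.75, 6.58 and 7.44 CPM at 24 h. For BBC3 the interaction was not called (adjusted p = 0.406). Of 16 genes of the BCL2 family and of apoptosis inhibitors 2 rose and 2 fell. BIRC2, or cIAP1, measured 131, 135 and 136 CPM at 0 h and 55.5, 57.8 and 62.3 CPM at 24 h, a log2 fold change of −1.19 (SE 0.0423, adjusted p = 3.65e-16), BIRC3, or cIAP2, fell from 45.9 ± 1.39 to 22.3 ± 1.60 CPM (SD, n = 3), and MCL1, an anti-apoptotic protein, rose from 496 ± 9.55 to 603 ± 5.45 CPM (SD, n = 3). BIRC2 and BIRC3 were called lower in CTRL cells too, with log2 fold changes of −0.40 and −0.62. The interaction was called for BIRC2 (−0.78) and MCL1 (0.35) but not for BIRC3 (adjusted p = 0.0127).

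Genes of the clock and of retinoic acid, zinc and the endoplasmic reticulum gave calls in both directions. Of 15 clock genes 4 rose and 2 fell. BHLHE40, a repressor of clock genes, measured 13.7, 13.1 and 13.2 CPM at 0 h and 31.5, 35 and 32.9 CPM at 24 h, a log2 fold change of 1.32 (SE 0.0671, adjusted p = 2.48e-13), and NFIL3, another repressor, measured 8.95, 8.06 and 9.39 CPM at 0 h and 18.8, 20.5 and 21.1 CPM at 24 h, a log2 fold change of 1.21 (SE 0.0842, adjusted p = 7.43e-11). Their interactions were 0.98 (adjusted p = 9.38e-06) and 1.19 (adjusted p = 1.44e-07). The 6 calls became 3 without 0 h replicates 1 or 3 or without 24 h replicate 3. Of 12 retinoic acid genes 3 rose and 2 fell, and CYP26B1, which degrades retinoic acid, measured 6.66, 7.78 and 7.09 CPM at 0 h and 2.60, 3.05 and 3.13 CPM at 24 h, with 1.60 CPM on average after 8 h. Among 14 metallothioneins and zinc transporters 4 rose and 1 fell, the last being SLC39A8, a zinc and manganese importer, with 49.7, 52.1 and 51.1 CPM at 0 h and 26.2, 30.4 and 30.0 CPM at 24 h. Of 26 chaperones and unfolded protein response genes of the endoplasmic reticulum 7 fell and 4 rose. XBP1, a transcription factor of that response, measured 128, 120.4 and 128 CPM at 0 h and 188, 185 and 182 CPM at 24 h, a log2 fold change of 0.57 (SE 0.0358, adjusted p = 1.24e-11), and it rose by 0.41 on the log2 scale in CTRL cells. SDF2L1, an ER chaperone partner, fell from 14.5 ± 0.783 to 10.5 ± 0.803 CPM (SD, n = 3). The 11 calls became 7 without 0 h replicate 2. Of 13 mitochondrial chaperones and proteases 3 rose and 1 fell. LONP1, a protease of the matrix, rose from 226 ± 5.28 to 278 ± 15.3 CPM (SD, n = 3), and the 4 calls became 2 without 0 h replicates 1 or 3 or without 24 h replicate 3. LONP1 was called higher in CTRL cells too, by 0.25 on the log2 scale, and its interaction was not called (adjusted p = 0.526).

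For some of these genes the source of the reads is uncertain, because their exons overlap exons of a gene on the other strand and the strand setting of the counting is not given in the sources used here. Among the genes described above this holds for AHNAK2, ANLN, ATP5PD, AXL, BBC3, BHLHE40, BIRC3, CARS1, CCND2, CDH1, CDK6, CDKN1A, CDKN2C, CEBPA, CEBPB, CEBPZ, DKK1, EGFR, EPHA7, EZR, FAS, FTH1, FZD8, HSPG2, IER3, IFIT2, ITGA10, ITGA6, KLF4, LONP1, MCL1, MVK, MYO10, NAV1, PLIN3, PTX3, PXN, RBM47, SLC7A11, SLC7A5, TFRC, TGFB3, VLDLR, WARS1 and YARS1, as it does for FADS1 and KRT86.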

How the data were processed

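Total RNA of MIA PaCa-2 cells was depleted of ribosomal RNA and sequenced by the authors. The deposited table holds raw counts per gene, with no normalization, filter or pooling of replicates: the submitters' processing notes name Trimmomatic 0.36 for trimming, HISAT2 2.3.4.3 and the GRCh38 genome for alignment and HTSeq for counting. The methods of the published study name other versions of both Trimmomatic and HISAT2. The strand setting is not given in the sources used here. Columns were assigned to wells from the sample labels. Gene names, coordinates and overlaps come from GENCODE 44 (56558 of 60675 identifiers matched).

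Counts were scaled with TMM and tested in R 4.3.3 by the quasi-likelihood method of edgeR 4.0.16 after its filter on low counts, in a model of the groups compared. Genes with a Benjamini-Hochberg adjusted p under 0.01 (two-sided) were called. The contrasts were 24 h against 0 h in C/EBPδ-inducible cells, the same in CTRL cells, and their interaction (12 libraries). Since an exact permutation test of 3 wells against 3 gives no p below 0.1, calls rest on the model across genes. Levels at 8 h and 48 h share the 0 h wells and are given as description. The floor for a gene was 3 counts per library, which covers counting error only.

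The comparison, the 44 gene lists and the marker lists were chosen with earlier results of these data known. Named were the tested C/EBP family members, in each direction the 8 called genes with the largest fold change (non-overlapping wells, at least 2 CPM in the higher group) and the 8 with the smallest p, and from each list up to 4 called members with the largest fold change, or the most abundant tested member where none was called. Other genes, such as cell type markers, were picked with their values in view. Alternative settings were DESeq2 1.42.0, library totals, other filters, all 24 libraries in the model, the replicate number as a block, an analysis of variance on log2(CPM + 1), an FDR of 0.05 and leaving out each library. The tests were checked on simulated counts. For the inducible line, edgeR recovered 56% of changes of 0.5 on the log2 scale, 83% of those of 1 and 97% of those of 2. It made 5 false calls among 15316 genes, while DESeq2 and the analysis of variance made 0 and recovered fewer changes of each size. For the interaction each method made 3 false calls. Some genes and 1 of the lists are not reported here.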

Additional observations from a re-analysis of the deposited data

Results flagged for a closer look

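Values are given here for 103 of the 185 named genes, whose 24 h change differed between the lines by edgeR's test of the interaction at an FDR of 0.01, against 2.86% (higher) and 2.98% (lower) of all genes tested. The named genes were chosen for their change in the inducible line, which the interaction shares, so the number of them is no independent result. Values are on the log2 scale, the change in inducible cells minus that in CTRL cells.

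Among regulators and stress genes, the interaction was 3.99 for CEBPD, −0.26 for CEBPG, −0.77 for CHAC1, 0.57 for TRIB3, −0.83 for SLC7A11, −0.26 for PSAT1, −0.39 for CARS1, −0.17 for YARS1, −0.25 for MARS1, −0.88 for CREB3L1 and −2.95 for CREB3L3. In inducible cells the log2 fold change of CREB3L3 was only −0.94. In CTRL cells it did not pass the filter on low counts, with means of 0.112 CPM at 0 h, under the floor, and 0.477 CPM at 24 h. For metabolic genes it was 2.08 for SLC2A3, 2.01 for ABCC3, 0.84 for AKR1C2, 0.64 for PGD, 0.52 for FTH1, 0.37 for FTL, 0.24 for TFRC, 0.49 for SCD, 0.50 for FADS1, 0.74 for MVK, −0.55 for HSD17B7, 0.79 for PLIN2, −0.35 for PLIN3, 2.33 for ABCG1, −0.62 for SLC39A8 and 0.40 for SLC39A10. In genes of the ribosome and of mitochondria it was 0.27 for RPL12, 0.21 for RPL19, 0.27 for RPL32, 0.25 for RPS18, 0.51 for MRPL33, 0.28 for MRPS15, 0.28 for NDUFS5, 0.20 for ATP5PD, 0.27 for COX5B, 0.14 for HSPA9, 0.19 for MT-CO1, 0.19 for MT-CO3 and 0.17 for MT-ND5. Genes of epithelium, adhesion and matrix gave 3.93 for CDH1, 0.70 for CLDN1, −0.89 for CLDN4, −0.66 for PKP3, 2.98 for DMKN, −0.99 for KRT15, −0.84 for KRT19, −0.40 for ITGA3, −0.70 for ITGA6, −1.20 for ITGA10, −0.95 for ITGB4, −0.55 for COL17A1, −0.36 for HSPG2, 1.38 for PTK2B, −0.48 for PXN and 0.64 for TGM2.

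For the cytoskeleton the values were −0.19 for ACTN4, −0.33 for DSTN, −0.49 for EZR, −0.76 for GSN, 0.46 for MYL9, −0.66 for MYO10, −0.39 for MYO18A, −0.58 for ARHGAP29, −0.37 for ECT2, −0.70 for NET1, 1.72 for KIF21B, −0.51 for NAV1, −0.60 for AHNAK and −0.77 for AHNAK2. Signalling genes gave −1.02 for EGFR, −0.84 for AXL, −0.77 for EPHA7, 0.89 for EGR1, 0.97 for IER3, −0.43 for DUSP7, −0.58 for FOSL1, −0.34 for KLF2, −0.28 for KLF4, −1.35 for TGFB3, −0.59 for DKK1, −0.52 for FZD8, −1.53 for APLN, −1.68 for TLR5, −0.48 for IFIT5, 1.62 for SIPA1L2, −0.84 for RGS4 and −0.71 for GPRC5A. In cell cycle, clock and survival genes the interaction came to −0.37 for ANLN, 0.94 for CDKN1A, −0.60 for CDKN2C, −0.97 for GADD45A, 0.35 for MCL1, −0.78 for BIRC2, 0.98 for BHLHE40, 1.19 for NFIL3 and 0.72 for NPAS2. The remaining genes had 2.68 for PRND, 1.44 for RBM47, −0.87 for ATP2B4, −0.90 for PODXL, −0.59 for EMP1 and −1.25 for SH3TC2-DT.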

How the results depend on the processing

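The count of 2407 genes in inducible cells lay between 1730 and 2394 when a library was left out, at 1986 with DESeq2 (1983 of them shared) and at 2422 with library totals. It was 3696 at an FDR of 0.05 and 498 with the analysis of variance on log2(CPM + 1), a test without shared information on the spread. The log2 fold change of CEBPD lay between 3.75 and 3.90 when a library was left out, and it was called under every alternative. The 921 genes of CTRL cells became 582 in a model of all 24 libraries, 1766 at an FDR of 0.05 and 39 with the analysis of variance, and lay between 505 and 1104 when a library was left out, at 560 without 0 h replicate 3 and at 533, 505 and 583 without 24 h replicates 1, 2 and 3. The 948 genes of the interaction became 603, 1648 and 569 under the same settings and lay between 747 and 956 when a library was left out.

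The sources used here do not say that wells with the same replicate number form pairs, and they were not taken as pairs. The deviations of such wells from the group means correlated across genes with r of −0.04, −0.04 and 0.01 in inducible cells. In CTRL cells r was 0.102, 0.0874 and 0.0978, positive for every replicate number, and whether such wells share an effect there was not tested. With the replicate number as a block, 1994, 1011 and 853 genes were called in the same order of comparisons, 1990, 905 and 846 of them shared with the model without it, and the counts for replication genes and respiratory chain genes became 6 and 11. No named gene that was called changed direction under an alternative, and IARS2, which was not called, came to 0.0046 with library totals.

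Of 181 named genes that were called, 86 lost the call under at least 1 alternative, 84 with the analysis of variance, 15 in the model of all 24 libraries, 9 with DESeq2, 5 with the replicate block and 2 with library totals. With the analysis of variance 38 of the 44 list counts also moved by over 1.5 times. Of the 181, 18 lost the call when at least 1 library was left out, with adjusted p values from 0.0107 to 0.0682: CCNE2, CDT1, CREB3L3, DGAT2, DHRS3, FAS, FGF5, FGFR2, HSPE1, INHBB, KLF5, MRPL51, MRPL58, NID1, NPAS2, TTK, UQCRHL and YME1L1. They numbered 12, 8 and 13 without 0 h replicates 1, 2 and 3 and 9, 8 and 13 without 24 h replicates 1, 2 and 3. In the model of all 24 libraries 11 glycolysis genes, 8 mitotic genes, 4 replication genes, 17 cytosolic ribosomal protein genes, 11 respiratory chain genes, 6 basement membrane genes, 3 metallothioneins and zinc transporters and 2 mitochondrial chaperones and proteases were called. Where edgeR was run without a filter, 56 cytosolic ribosomal protein genes were called, with library totals 7 mitochondrial ribosomal protein genes, and with DESeq2 3 clock genes. The causes were not tested.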

Other observations

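Of the 42 genes called in opposite directions in the lines, 5 are among the named genes. Besides PRND, TGM2, a transglutaminase that crosslinks matrix proteins, measured 617, 635 and 627 CPM at 0 h and 804, 741 and 745 CPM at 24 h and rose by 0.29 on the log2 scale, while its log2 fold change in CTRL cells was −0.35. SLC39A10, a zinc importer, had log2 fold changes of 0.20 and −0.19 in inducible and CTRL cells. GADD45A, a stress-induced growth arrest gene, measured 74.6, 80.1 and 81.2 CPM at 0 h and 57, 58.8 and 56.7 CPM at 24 h, with log2 fold changes of −0.45 and 0.53. CREB3L1, a membrane-bound factor of secretory cells, measured 14.4, 13.9 and 13.9 CPM at 0 h and 9.85, 10.2 and 10.1 CPM at 24 h, with log2 fold changes of −0.48 and 0.40.

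The 8 h level of some named genes lay outside the span between 0 h and 24 h. GADD45A averaged 130.1 ± 1.92 CPM after 8 h, above the 0 h wells, and 42.6 ± 2.29 CPM after 48 h (SD, n = 3). FERMT1 averaged 112 ± 0.392 CPM after 8 h, against 57.7 ± 1.63 at 0 h and 36.3 ± 2.48 at 24 h (SD, n = 3). SLC7A11 averaged 150.04 ± 1.83 CPM after 8 h, against 51.5 ± 1.21 at 0 h and 82.2 ± 4.89 at 24 h (SD, n = 3). SCD and DHCR7, both of lipid synthesis, lay lower at 8 h than at 0 h, DHCR7 with 28.7 ± 0.145 against 37.6 ± 0.732 CPM, and DHCR7 reached 68 ± 2.14 CPM after 48 h (SD, n = 3). These genes were picked after their values were seen, and no test was made of the 8 h levels.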
